A study of Mus musculus with 6 samples.

Results

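The satellite repeats of the table are the rows whose name contains SAT, and 4 of the 363 repeat families listed met this rule: MMSAT4, GSAT_MM, SATMIN and CENSAT. Reads were counted on these families in P20 (postnatal day 20) testes of 3 wild-type mice (WT in the labels) and 3 mice homozygous for the Spocd1 ΔSPIN1 allele (Spocd1 dSpin/dSpin in the labels). All 6 libraries came from a mixed B6CBAF1/Crl; C57BL/6N background, and each was made from the total RNA of a single testis after DNase treatment and depletion of ribosomal RNA. The ΔSPIN1 allele encodes a SPOCD1 protein with alanine substitutions made to abolish its binding to the chromatin reader SPIN1, is carried in every tissue and derives from a single founder animal. The study asked which repeats are deregulated when this interaction is lost, and the satellites are tandem repeats in a table made up mostly of transposons.

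Satellites are short sequence units repeated head to tail in long arrays. In the mouse, the gamma or major satellite (GSAT_MM) builds the pericentromeric heterochromatin, which is marked by H3K9me3 and gathers into the chromocentres seen in stained nuclei. The minor satellite (SATMIN) lies at the centromere, where the kinetochore is assembled. MMSAT4 is a further mouse satellite, and CENSAT is named as a centromeric satellite. Satellite arrays are transcribed at low levels, and their transcripts need not be polyadenylated, so libraries depleted of ribosomal RNA can hold them. The piRNA pathway, in which SPOCD1 acts, is known for directing DNA methylation to young transposons.

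The wild-type libraries held from 369598 to 499166 counts, and those of Spocd1 ΔSPIN1 from 842018 to 1013224. LINE1 families (names starting with L1 or Lx) made up 44.9% ± 2.22 of a wild-type library and 66.2% ± 4.98 of a ΔSPIN1 library (SD, n = 3 each), with 60.5% in ΔSPIN1 replicate 1 against 68.5% and 69.6% in replicates 2 and 3. Levels are therefore given as normalized CPM, which are counts relative to a library size adjusted with edgeR's TMM factors (trimmed mean of M-values), and shares of all counts and of counts outside LINE1 families are given beside them. The table holds no gene, so neither the genotype nor the cell types of a testis could be checked. In whole testis, fewer cells of a type and less RNA per cell cannot be told apart.

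MMSAT4 was the most abundant satellite in every library. It was counted 847, 1210 and 1442 times in wild-type replicates 1, 2 and 3, and 1190, 1045 and 975 times in ΔSPIN1 replicates 1, 2 and 3. In normalized CPM, the wild-type levels were 1417, 2394 and 1979 and the ΔSPIN1 levels 1909, 1461 and 1593. The genotypes overlapped, because the lowest value of all was that of wild-type replicate 1 and the highest that of wild-type replicate 2. The means were 1930 ± 490 and 1655 ± 230 normalized CPM (SD, n = 3 each), with a log2 fold change (SE) of −0.22 (0.19). In the quasi-likelihood test of edgeR the unadjusted p was 0.269 and the p adjusted by Bonferroni over all families was 1. The 95% interval of this log2 fold change ran from −0.65 to 0.21, that is from 0.636-fold to 1.16-fold, and the value lay between −0.40 and −0.04 when each library was left out in turn. The lowest of these, −0.40 (SE 0.14) without wild-type replicate 1, had an unadjusted p of 0.0258 and a Bonferroni-adjusted p of 1 in edgeR. In that fit, 119 of 311 families had an unadjusted p under 0.05. The highest value was that without wild-type replicate 2.

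GSAT_MM, the major satellite, was counted 322, 121 and 430 times in wild-type replicates 1, 2 and 3, and 415, 199 and 112 times in ΔSPIN1 replicates 1, 2 and 3. Normalized CPM were 539, 239 and 590 in wild type and 666, 278 and 183 in Spocd1 ΔSPIN1. Both genotypes held high and low libraries: wild-type replicates 1 and 3 and ΔSPIN1 replicate 1 lay between 539 and 666 normalized CPM, and the other 3 libraries between 183 and 278. The means were 456 ± 189 and 376 ± 256 normalized CPM (SD, n = 3 each), with a log2 fold change (SE) of −0.30 (0.48). The unadjusted p in edgeR was 0.551 and the Bonferroni-adjusted p was 1. The 95% interval ran from −1.42 to 0.82 on the log2 scale, so neither a fall to 0.375-fold nor a rise to 1.76-fold lay outside it. In wild type, replicate 2 had the smallest LINE1 share (42.5%, against 45.3% and 46.9% in replicates 1 and 3) and the least GSAT_MM. By contrast, the mutant library with the smallest LINE1 share, ΔSPIN1 replicate 1, had the most GSAT_MM of the mutant libraries. Without it, the log2 fold change (SE) was −1.00 (0.38), with an unadjusted p of 0.0346 and a Bonferroni-adjusted p of 1 in edgeR. In that fit, 123 of 297 families had an unadjusted p under 0.05. Without ΔSPIN1 replicate 3, the log2 fold change was 0.049. The part of the LINE1 share in these differences between libraries was not tested.

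SATMIN, the minor satellite, was close to the limit of detection. It was counted 11, 4 and 17 times in wild-type replicates 1, 2 and 3, and 13, 2 and 0 times in ΔSPIN1 replicates 1, 2 and 3. Normalized CPM were 18.4, 7.91 and 23.3 in wild type and 20.9, 2.80 and 0 in Spocd1 ΔSPIN1. The genotypes again overlapped, with ΔSPIN1 replicate 1 at the level of the higher wild-type libraries. The count of 0 in ΔSPIN1 replicate 3 allows up to 3 counts, or 4.90 normalized CPM, as a one-sided limit. The two-sided exact 95% Poisson intervals ran from 1.09 to 10.2 for the count of 4, from 0.242 to 7.22 for that of 2 and up to 3.69 for that of 0 (counting error only). The log2 fold change (SE) was −1.15 (0.84), with a 95% interval from −3.10 to 0.80, an unadjusted p of 0.208 and a Bonferroni-adjusted p of 1 in edgeR. It depended on which mutant library was left out. Without ΔSPIN1 replicate 1, it was −3.37 (0.87), with an unadjusted p of 0.00599 in edgeR and adjusted p-values of 0.025 by Benjamini-Hochberg and 1 by Bonferroni. In that fit, 123 of 297 families had an unadjusted p under 0.05. How many of them passed 0.05 by Benjamini-Hochberg in that fit was not counted, and 31.5% of all families did so with every library included. The log2 fold change of SATMIN was −0.71 without ΔSPIN1 replicate 2 and −0.59 without ΔSPIN1 replicate 3. SATMIN passed the filter on low counts through 3 libraries, namely wild-type replicates 1 and 3 and ΔSPIN1 replicate 1.

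CENSAT had 0 counts in every library, as did 3 of the families that are not satellites. Its listed sequence is the shortest of the table, with a length of 60. With 0 counts in all libraries together, up to 3 counts are allowed, or 7.39e-05% of the counts. Whether reads of these libraries could be aligned to a sequence of that length was not tested.

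**Figure D1:**
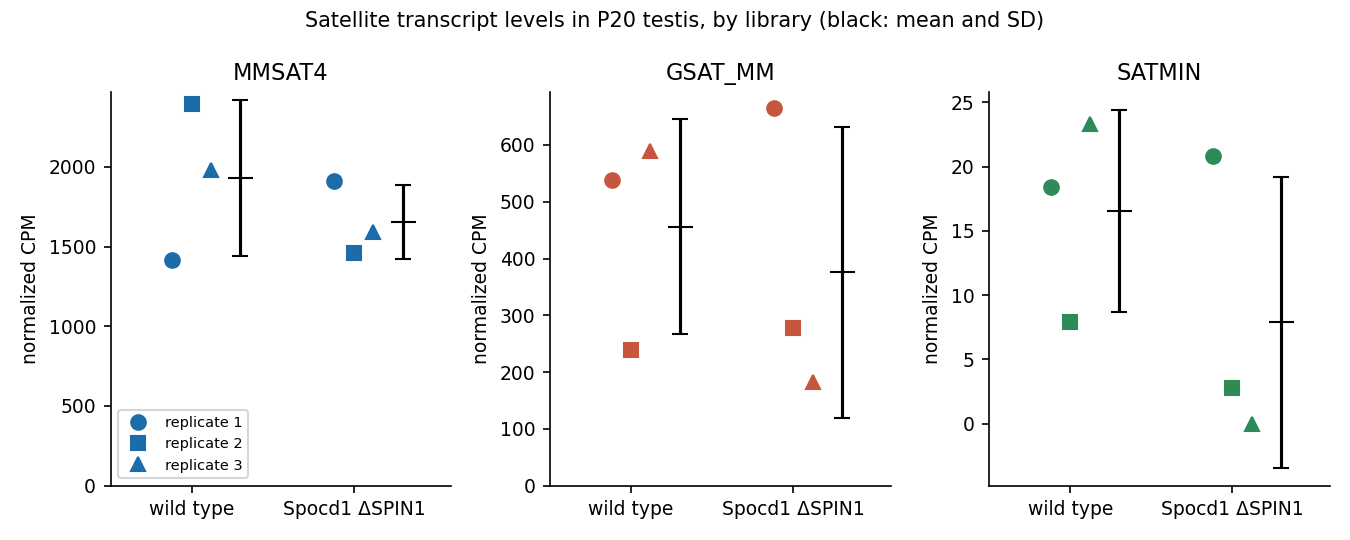
Normalized CPM (y axis) of MMSAT4, GSAT_MM and SATMIN in wild type and Spocd1 ΔSPIN1 (x axis), with a marker shape for each replicate number and the mean and SD in black (n = 3). The genotypes overlap in each panel, and for GSAT_MM and SATMIN ΔSPIN1 replicate 1 lies with wild-type replicates 1 and 3, at 666 and 20.9 normalized CPM.

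Thus none of the 3 satellite families tested passed the threshold of 0.05 after Bonferroni adjustment over 292 families, against 8.22% of all families tested (24 of 292, 16 higher and 8 lower in Spocd1 ΔSPIN1). The count was 0 of 3 as well at an unadjusted p under 0.05, where 42.5% of all families passed, with Benjamini-Hochberg adjustment (31.5%) and with the Wald test of DESeq2 (16.1%). Likewise, 0 of the 3 had genotypes that did not overlap in normalized CPM, against 45.9% of all families. All 3 log2 fold changes were below 0, as were 56.5% of those of all families. Their median was −0.30, beside −0.04 over all 292 families and −0.17 over the 202 families outside the satellites, LINE1, IAP and SINE. The median was 0.19 over 46 LINE1 families, 0.31 over 32 IAP families and 0.13 over 9 SINE families. A total of 76 families had a lower log2 fold change than GSAT_MM, 92 had a lower one than MMSAT4, and 16 had a lower one than SATMIN.

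**Figure D2:**
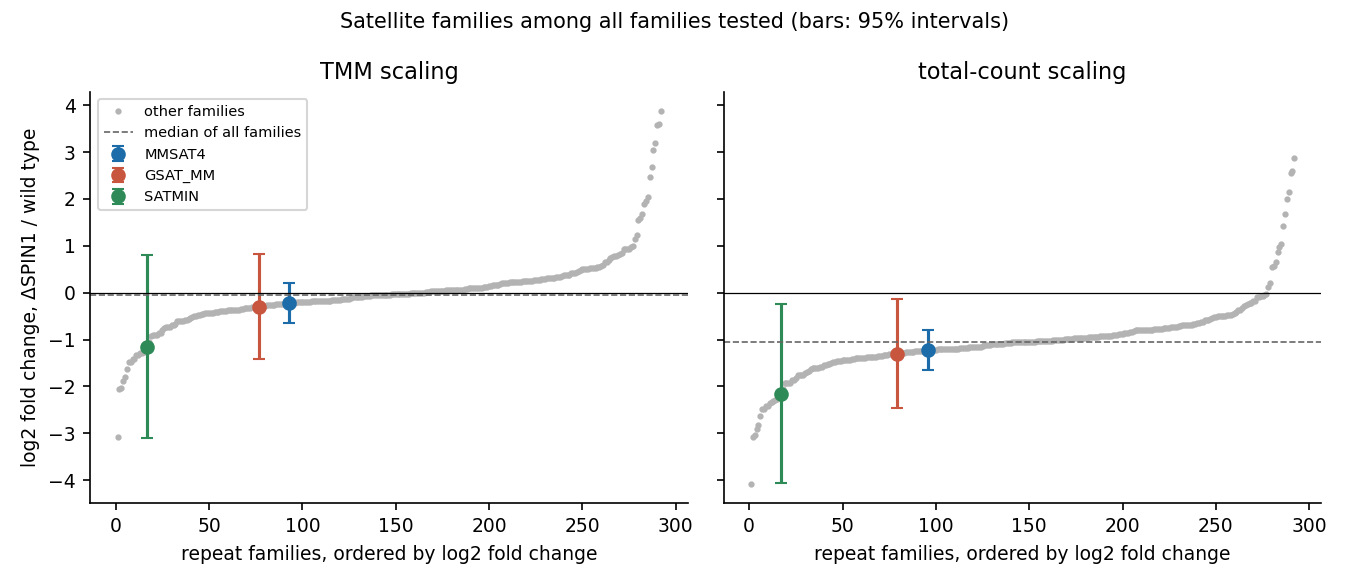
Log2 fold change of Spocd1 ΔSPIN1 over wild type (y axis) of the 292 families tested, in increasing order (x axis), with TMM scaling on the left and total-count scaling on the right. The satellites are coloured with their 95% intervals, and total-count scaling moves them together with the median of all families (dashed), which goes from −0.04 to −1.05.

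Among the alternatives run, a satellite passed the Bonferroni threshold only with total-count scaling. Under that scaling, the log2 fold changes of MMSAT4, GSAT_MM and SATMIN were −1.23, −1.30 and −2.15, and that of MMSAT4 did so (SE 0.19, adjusted p of 0.0435 in edgeR). Then 57.5% of all families were called lower and the median over all families was −1.05, with 4 families called higher and 168 lower. Relative to the median of all families, the log2 fold changes of MMSAT4, GSAT_MM and SATMIN were −0.18, −0.26 and −1.11 with TMM, and −0.17, −0.25 and −1.10 with total counts.

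The satellites were also compared as shares within each library. Together they took 0.283%, 0.361% and 0.378% of all counts in wild-type replicates 1, 2 and 3, and 0.192%, 0.123% and 0.118% in ΔSPIN1 replicates 1, 2 and 3. The means were 0.341% ± 0.0507 and 0.144% ± 0.0413 (SD, n = 3 libraries of each genotype). An exact permutation test, two-sided, gave p = 0.1, which is the lowest value that 3 against 3 can reach. Every ΔSPIN1 library was thus below every wild-type library, but 83.6% of the 292 families showed the same order in their share of all counts. Of the counts outside LINE1 families, the satellites took 0.620% ± 0.0976 in wild type and 0.422% ± 0.0556 in Spocd1 ΔSPIN1, with p = 0.1 in the same exact test.

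MMSAT4 made up most of these shares. Of the counts outside LINE1 families, it took 0.372%, 0.569% and 0.544% in wild-type replicates 1, 2 and 3 and 0.358%, 0.328% and 0.350% in ΔSPIN1 replicates 1, 2 and 3. These groups did not overlap, although wild-type replicate 1 was close to ΔSPIN1 replicate 1, and 54.9% of the 246 tested families outside LINE1 lay in that order. GSAT_MM took 0.141%, 0.0569% and 0.162% in wild type and 0.125%, 0.0624% and 0.0402% in Spocd1 ΔSPIN1, which overlapped (p = 0.3 in the same exact permutation test).

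**Figure D3:**
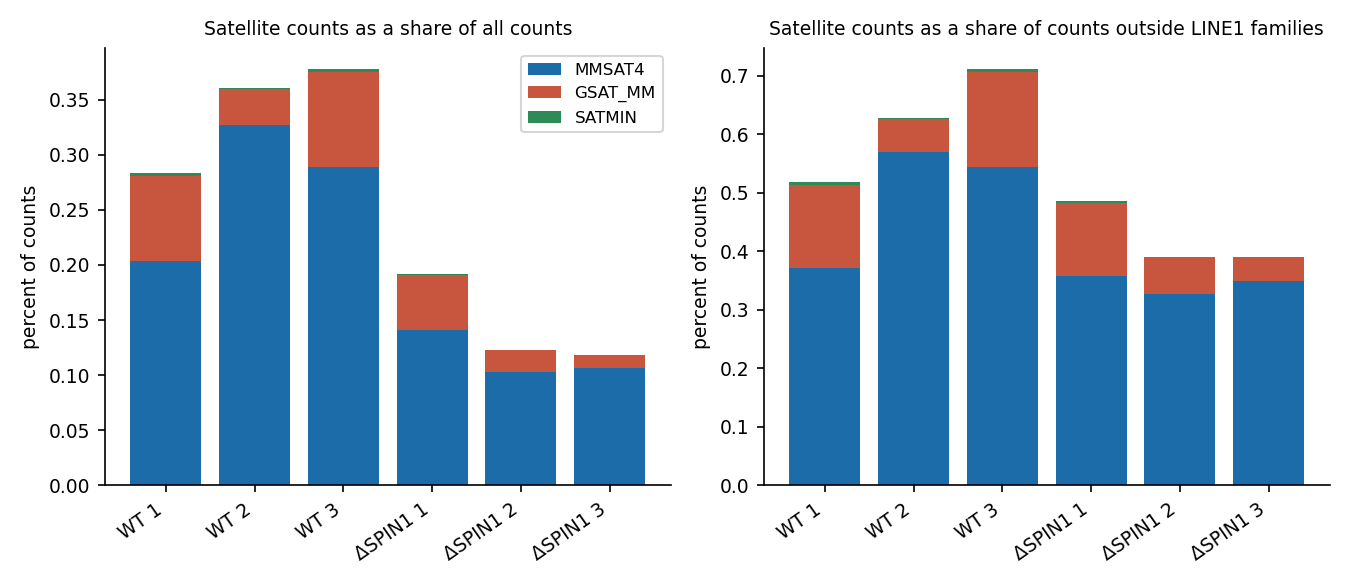
Percent of all counts (left) and of counts outside LINE1 families (right) taken by satellites for each of the 6 libraries (x axis, WT for wild type), stacked by satellite family. MMSAT4 makes up most of each bar, and in both panels the ΔSPIN1 bars, at most 0.192% and 0.486%, are lower than the wild-type bars.

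Between libraries of the same genotype, GSAT_MM varied far more than counting error. In wild type its normalized CPM varied by a factor of 2.47, a coefficient of variation of 41.5% where counting error alone gives 5.86%. In Spocd1 ΔSPIN1 the factor was 3.64 and the coefficient of variation 68.1%, against 6.43% from counting. The SD of its log2 level among wild-type libraries was 0.71, beside a median of 0.14 over all families tested. This was the largest SD among the 123 families with a mean count at least that of GSAT_MM, followed by 0.43 for ERVB4_1B-LTR_MM. Among ΔSPIN1 libraries its SD of 0.95 was the fourth largest of these 123, where L1MdA_I and L1_MM came first with 1.19 and 1.12.

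MMSAT4 was steadier. Its coefficient of variation was 25.4% in wild type and 13.9% in ΔSPIN1 libraries, with counting errors of 2.93% and 3.06%. Its SD of 0.38 among wild-type libraries was the second largest of the 69 families at least as abundant. In Spocd1 ΔSPIN1 its SD of 0.20 ranked at place 23 of these 69. SATMIN had SDs of 0.75 in wild type and 2.37 in ΔSPIN1 libraries, and counting alone gives it a coefficient of variation of 30.6% and 44.7%.

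**Figure D4:**
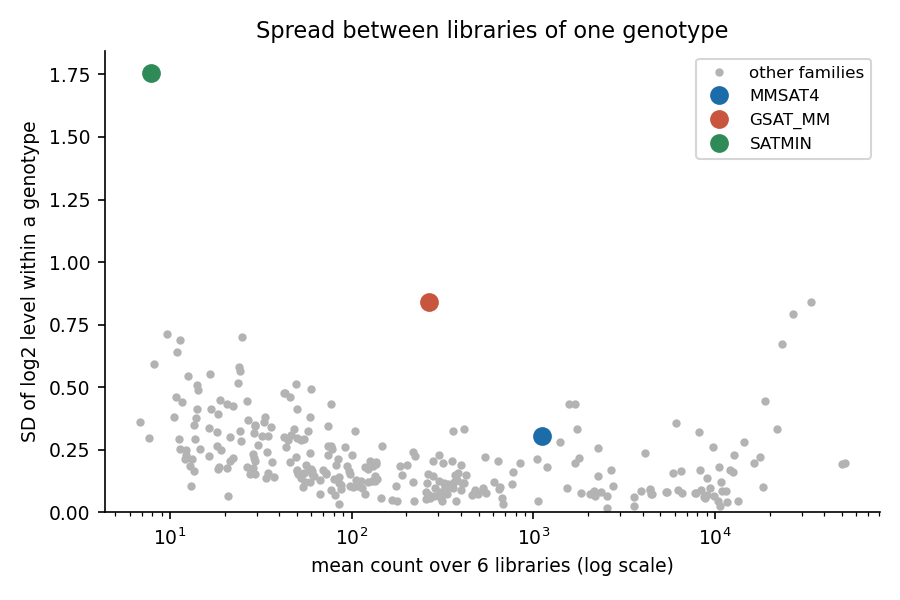
SD of the log2 level within a genotype, pooled over both genotypes (y axis), against the mean count over the 6 libraries (x axis, log scale) for the 292 families tested. GSAT_MM lies above the families of similar count at 0.84, MMSAT4 within them at 0.30, and SATMIN at the low-count end at 1.76.

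The major and minor satellites were high and low in the same libraries. The 3 libraries with the least GSAT_MM, namely wild-type replicate 2 and ΔSPIN1 replicates 2 and 3, were also those with the least SATMIN. Among the other families tested, GSAT_MM had the closest pattern to SATMIN, with an SD of 1.27 of the log2 ratio of their counts over the 6 libraries. This was the largest SD to a closest family among the 292 families tested, where the median was 0.08. SATMIN, with counts from 0 to 17, thus followed no family closely. Of the reads on either, SATMIN took 3.30%, 3.20% and 3.80% in wild-type replicates 1, 2 and 3, and 3.04%, 0.995% and 0% in ΔSPIN1 replicates 1, 2 and 3. The exact (Clopper-Pearson) 95% interval of ΔSPIN1 replicate 3 reached up to 3.24% and that of ΔSPIN1 replicate 2 up to 3.55%, and whether these shares differed from those of the other libraries was not tested. The treatment of reads with matches in more than a single family is not given in the sources used here, and satellites with similar sequences may share reads.

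MMSAT4 did not follow them. It was highest in wild-type replicate 2, where GSAT_MM was the fifth of 6, and lowest in wild-type replicate 1, where GSAT_MM was the third. As a result, MMSAT4 was counted 2.63, 10 and 3.35 times as often as GSAT_MM in wild-type replicates 1, 2 and 3, and 2.87, 5.25 and 8.71 times as often in ΔSPIN1 replicates 1, 2 and 3. The log2 ratio of MMSAT4 to the other satellites together averaged 2.10 ± 1.03 over wild-type libraries and 2.33 ± 0.82 over ΔSPIN1 libraries (SD, n = 3). The difference of 0.22 was smaller than the spread of either genotype (p = 0.9 in the exact permutation test). Its direction depended on single libraries, with −0.16 without wild-type replicate 1, −0.18 without ΔSPIN1 replicate 3 and 0.81 without wild-type replicate 2.

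Outside the satellites, the closest patterns to MMSAT4 over the 6 libraries were those of RLTR4_MM, RLTR4I_MM and LTRIS, all named as parts of endogenous retroviruses. The SD of the log2 ratio of their counts to that of MMSAT4 was 0.15, 0.15 and 0.17. The SD of MMSAT4 to its closest family ranked at place 72 of 292, largest first, where the median was 0.08. The count of RLTR4_MM was between 1.05 and 1.39 times that of MMSAT4 in every library. For GSAT_MM the closest were RLTR20B5_MM, MYSERV and MERV1_LTR, but with SDs of 0.50, 0.54 and 0.55 none of them followed it closely. For SATMIN they were RLTR41A2, RLTR20B5_MM and RLTR30D2_MM, with SDs of 1.35, 1.47 and 1.48.

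Per length, MMSAT4 stood far above the other satellites. MMSAT4, with a listed length of 168, had 11487 normalized CPM per kilobase in wild type and 9850 in Spocd1 ΔSPIN1, which placed it at 14 of the 363 families over all libraries. GSAT_MM, with a length of 471, had 968 and 798 normalized CPM per kilobase and was at place 91. SATMIN, with a length of 362, had 45.7 and 21.8 normalized CPM per kilobase and was at place 275. The order of MMSAT4, GSAT_MM and SATMIN was the same in every library. A satellite read can come from any copy of the repeat, so these levels stand for all copies together. Reads from gene transcripts that contain or resemble such a repeat would be counted with them. Their part in the counts was not tested, also for MMSAT4, which holds most of the satellite counts. The libraries kept the strand of the RNA, but the table does not separate strands, so transcripts of either strand of a repeat are summed.

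**Figure D5:**
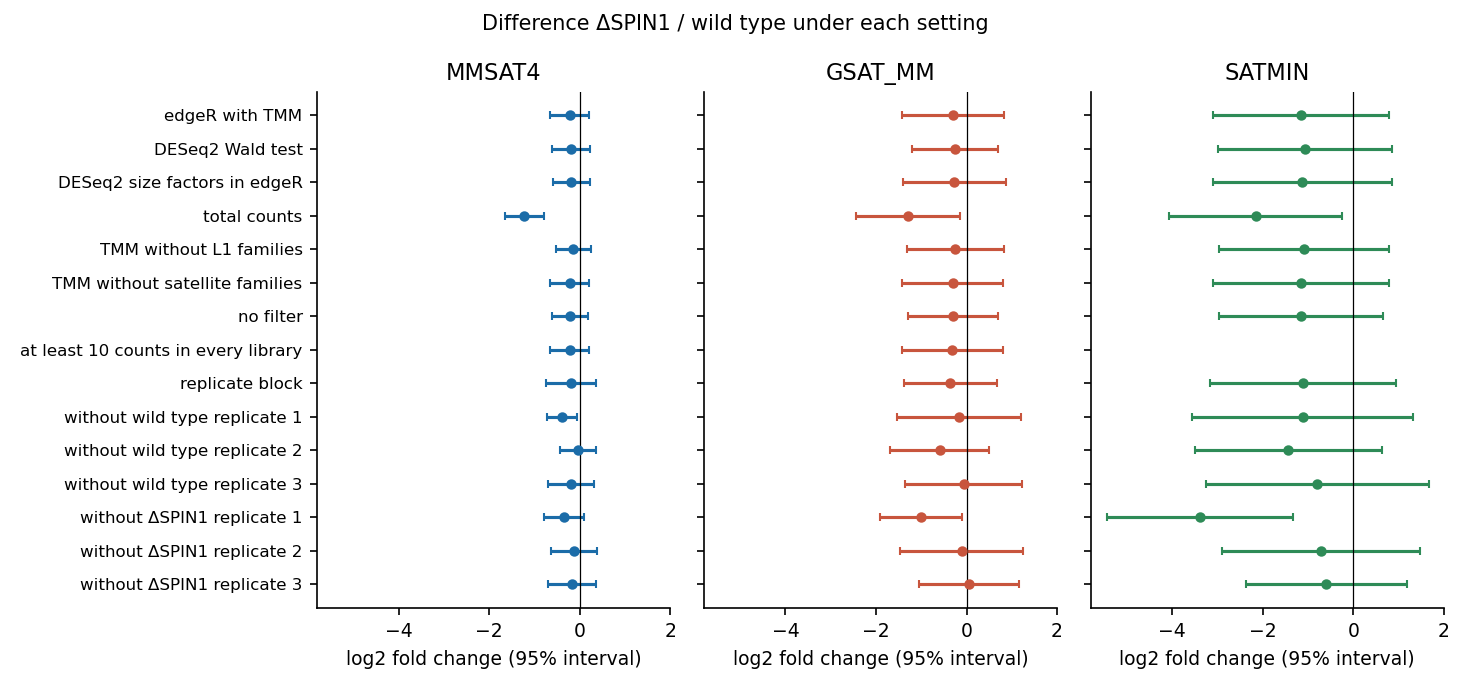
Log2 fold change of Spocd1 ΔSPIN1 over wild type with its 95% interval (x axis) for MMSAT4, GSAT_MM and SATMIN under each setting of the analysis (y axis). Total-count scaling moves all 3 to the left, to −1.23, −1.30 and −2.15, and leaving out ΔSPIN1 replicate 1 moves GSAT_MM and SATMIN to −1.00 and −3.37.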

How the data were processed

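The authors deposited a single table of raw read counts for 363 repeat families in 6 stranded RNA-seq libraries of P20 testis, and gave a sequence length for each. The submitters' processing notes name cutadapt 1.18, Bowtie2 2.4.2 and the build mm10. The rule for reads matching several families is not given in the sources used here. A row named for the aligner, with 0 in every library, was left out.

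Counts were scaled by TMM, filtered with filterByExpr by genotype (292 families kept) and tested with glmQLFit and glmQLFTest of edgeR 4.0.16 in R 4.3.3, with Bonferroni adjustment as in the study. DESeq2 1.42.0 served as an alternative. P-values were adjusted over all families tested. Spread was taken from log2 normalized counts plus 0.5. Permutation tests were exact and two-sided (scipy 1.17.1). On simulated counts for 363 families, edgeR called 40 of 40 changed families and 0 of 252 unchanged ones. These calls were counted over all families together. The planted changes were all larger than those fitted for the satellites with TMM and every library. They lay only in families more abundant than SATMIN, and the simulated families shared a single dispersion. Smaller changes and rarer families were thus not covered. Whether edgeR would call a change in families as variable within a genotype as GSAT_MM (SD 0.84) or SATMIN (SD 1.76) was not tested. Text names every satellite row and, for each tested one, the 3 families closest in pattern. L1MdA_I, L1_MM and ERVB4_1B-LTR_MM were named after their values were seen. The members, lists and tests were chosen with earlier results of these data known. In each pair of libraries of the same genotype, counts differed beyond sampling error (chi-square per degree of freedom of at least 9.62). It was 381 and 328 for ΔSPIN1 replicate 1 against ΔSPIN1 replicates 2 and 3. Between ΔSPIN1 replicates 2 and 3 it was 13.4, and between wild-type libraries it was at most 13.5. This statistic gives most weight to families with many counts, such as L1MdA_I, counted 18652, 87923 and 76973 times in ΔSPIN1 replicates 1, 2 and 3. Over the families tested, the median SD of the log2 level was 0.15 among ΔSPIN1 libraries and 0.14 among wild-type libraries. ΔSPIN1 replicate 1 thus differed in summed counts from the other mutant libraries, and how many families took part was not tested. The p-values of edgeR and DESeq2 set the genotype difference against the spread between these libraries. Those of the permutation tests set it against other assignments of the libraries to genotypes. Intervals cover counting error only where they are Poisson or binomial.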

Additional observations from a re-analysis of the deposited data

How the results depend on the processing

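Most alternatives kept the direction of the satellite log2 fold changes and the side of the Bonferroni threshold. These were 14 of 15 for MMSAT4, 14 of 15 for GSAT_MM and 14 of 14 for SATMIN (a minimum of 10 counts per library removed SATMIN). The exceptions were MMSAT4 with total counts (−1.23, with 1 satellite then called) and GSAT_MM without ΔSPIN1 replicate 3 (0.049). With each library left out in turn, the log2 fold change was between −0.40 and −0.04 for MMSAT4, between −1.00 and 0.049 for GSAT_MM and between −3.37 and −0.59 for SATMIN, the number of families called between 14 and 28, the difference in summed satellite share between −0.225 and −0.178 percentage points, and that in the log2 ratio of MMSAT4 to the other satellites between −0.18 and 0.81 (−0.16 without wild-type replicate 1, −0.18 without ΔSPIN1 replicate 3). Against 24 families called, 47 were called with DESeq2's Wald test, 172 with total counts, 92 with Benjamini-Hochberg adjustment and 7 with a minimum change of 2-fold. Of these, the last 2 settings used the same fit, with a less strict adjustment and with a stricter test. For DESeq2's Wald test and total counts, the cause was not tested. A replicate block left 14 families and 0 satellites called. The deviations of same-numbered libraries had correlations of 0.079, 0.023 and −0.12, beside −0.10 to 0.11 for libraries of different number. With 3 libraries of each genotype, this cannot show whether same-numbered libraries shared a litter or a preparation. Counts of SATMIN and CENSAT were too low for smaller differences to be seen.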
